A study of Mus musculus with 2 samples.

Results

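The genes described here are the tumour necrosis factor (TNF) superfamily ligands, their receptors and the TRAF adaptor proteins in MC3T3-E1 cells, an osteoblast-like line from mouse calvaria. They were the 38 rows of the deposited count table, of 55487 in all, whose symbol named a family ligand, a family receptor or Traf1 to Traf7 and which had at least 1 count in the 2 libraries together. Tnfsf11 and Tnfrsf11b, which encode RANKL and osteoprotegerin, were left out of this set, and 9 further family names that stood at 0 in both libraries were not members. One library came from cells given 10 nM parathyroid hormone (PTH) and labelled 1 h, and 1 came from untreated cells with the same time label. Both used the unmodified line, kept in medium with 10% fetal bovine serum and seeded in 12-well plates 24 h before treatment. With 1 library per condition no difference has a replicate check, no p-value was computed, and each ratio compares these libraries and not the conditions.

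TNF superfamily ligands are trimeric membrane or secreted proteins that bind receptors with cysteine-rich extracellular repeats. Some receptors carry an intracellular death domain and recruit adaptors such as TRADD and FADD. Others bind TRAF proteins directly, and these lead to NF-kappaB and MAP kinases. In bone the family is best known for the RANKL system, through which osteoblast-lineage cells direct osteoclast formation, and for the effects of TNF on osteoblasts and osteoclasts.

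The PTH library held 70036872 counts and the untreated library 66302211. Scaling used effective library sizes from edgeR's TMM method, and each scaled ratio of PTH over untreated is given with its 95% exact conditional interval in brackets, which covers counting error only. A gene was called higher or lower when its whole interval lay beyond 1.5-fold, and 16408 rows were compared, those with 20 or more counts in all. All 10 osteoblast markers had counts, and 1 was called lower, none higher and 9 neither. The called marker was Sp7, which encodes the transcription factor osterix, with 1974 counts with PTH and 4583 untreated (ratio 0.418, 0.397 to 0.441). Col1a1 had 2093308 counts with PTH and 1935295 untreated. Of 10 lymphocyte markers, 9 stood at 0 in both libraries, Ptprc and Cd3e among them, and Cd79a had 10 counts with PTH and 15 untreated. The summed level was 0.145 CPM (counts per 1000000 of the effective library size) with PTH and 0.223 CPM untreated. Of 9 macrophage and osteoclast markers, Adgre1, Itgam, Dcstamp and Ocstamp stood at 0 in both libraries. Cd14 had 173 counts with PTH and 14 untreated and was called higher (ratio 12.0, 6.96 to 22.4). Csf1r had 155 counts with PTH and 122 untreated, and Cd68 had 57 with PTH and 67 untreated, and neither was called. Acp5 was listed at 8 counts with PTH and 0 untreated. The summed level of that list was 99.0 CPM with PTH and 87.3 CPM untreated, most of it from Ctsk, which had 6452 counts with PTH and 5656 untreated. The part of other cell types in the values below was not tested, and in bulk RNA a smaller share of cells of a type and less RNA per cell cannot be told apart.

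Of the 38 members, 30 had a total of 20 or more, and 5 of these were higher after PTH, 3 were lower and 22 were neither. Over all rows compared, 5.39% were called higher and 3.54% lower. The members with more reads were the ligand genes Tnfsf10, Tnfsf18 and Tnfsf15, the receptor gene Tnfrsf9 and the adaptor gene Traf1. Tnfrsf9 was listed at 0 untreated, and any compared row at 0 in 1 library is called by this rule, so its call was fixed by the filter. Those with fewer reads were the receptor genes Tnfrsf4 and Tnfrsf13c and the adaptor gene Traf5. The median log2 ratio was 0.03 over the 30 members and 0.00 over all rows. When total counts were used for scaling, 5 members were higher and 6 were lower, since Traf2, Tnfrsf12a and Tnfsf13 then passed the limit. By that scaling 5.12% of all rows were higher and 3.92% lower.

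The calls lay mostly among genes with few reads. Of the 12 compared members with a total under 200 counts, 5 were higher and 2 lower, and in that class of all rows 9.74% were higher and 7.5% lower. Of the 18 members with 200 or more counts, none was higher and Traf5 alone was lower, against 3.76% higher and 2.07% lower among such rows. The lowest ratios of the 18 were those of Traf5, Tnfrsf14, Traf2 and Tnfrsf12a, and the others lay between 0.777 and 1.17.

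**Figure D1:**
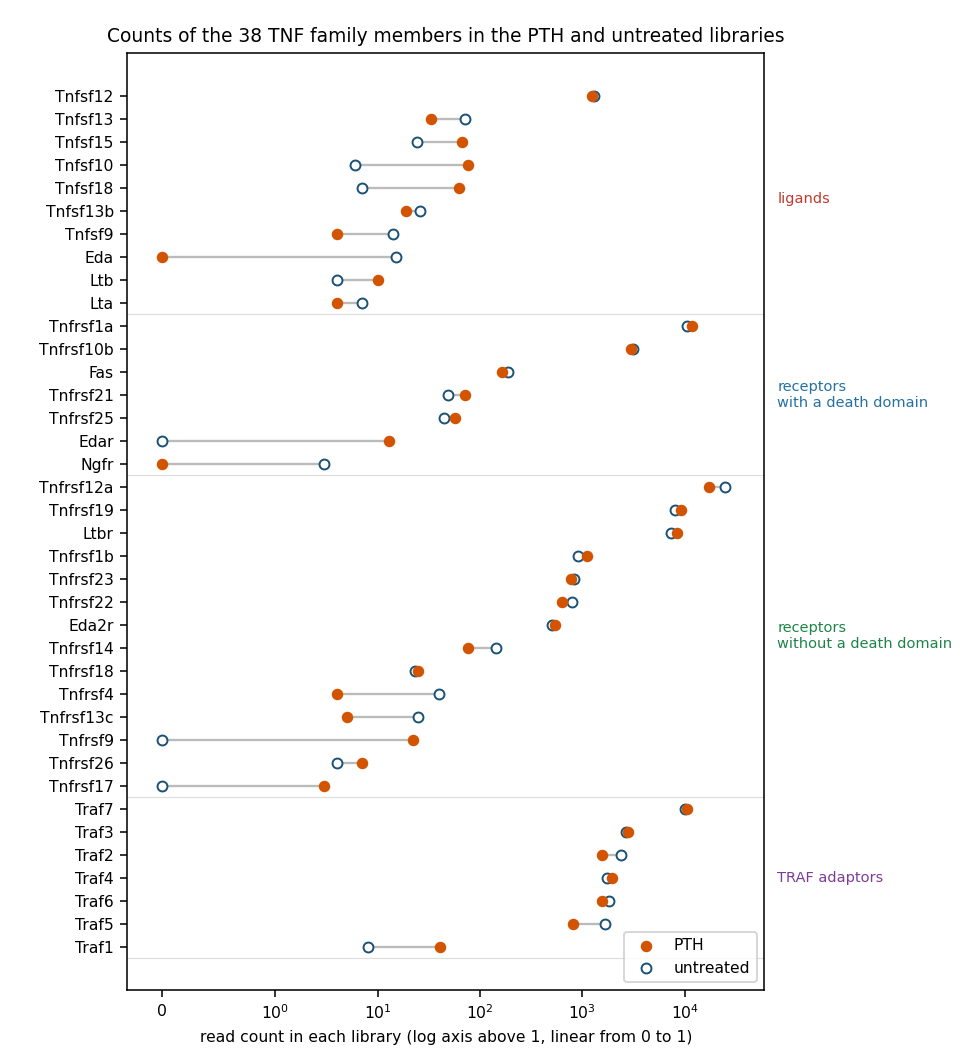
Read counts of the 38 members in the PTH library (filled points) and the untreated library (open points), by role, on an axis that is logarithmic above 1. Tnfsf10, Tnfsf18 and Traf1 stand far apart between the libraries at under 100 counts, while Tnfrsf1a, Ltbr, Tnfrsf19 and Traf7 nearly coincide at far higher counts.

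Promoter windows of the 4 higher members with counts in both libraries are shown so that the sequence around their starts can be read beside their counts. They are RefSeq windows on GRCm38.p6, the build also called mm10, from 250 bases before to 50 bases after a transcript start, 5′ to 3′ on the gene's strand. The windows are chr3:27316827-27317126 on the + strand for Tnfsf10, chr1:161494407-161494706 on the + strand for Tnfsf18, chr4:63745010-63745309 on the - strand for Tnfsf15 and chr2:34961723-34962022 on the - strand for Traf1. Capitals mark a match to one of the motifs searched.
Tnfsf10: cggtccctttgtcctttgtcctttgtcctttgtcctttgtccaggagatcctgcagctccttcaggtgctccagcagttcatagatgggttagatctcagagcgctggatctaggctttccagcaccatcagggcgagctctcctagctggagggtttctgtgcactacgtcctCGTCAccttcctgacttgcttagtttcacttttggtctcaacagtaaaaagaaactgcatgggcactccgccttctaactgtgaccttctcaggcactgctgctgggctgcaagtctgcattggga
Tnfsf18: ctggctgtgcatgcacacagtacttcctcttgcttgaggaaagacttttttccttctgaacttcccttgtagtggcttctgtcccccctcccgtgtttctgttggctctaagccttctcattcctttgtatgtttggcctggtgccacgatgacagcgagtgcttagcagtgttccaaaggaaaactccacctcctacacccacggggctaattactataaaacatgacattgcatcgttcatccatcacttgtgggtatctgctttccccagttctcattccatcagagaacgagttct
Tnfsf15: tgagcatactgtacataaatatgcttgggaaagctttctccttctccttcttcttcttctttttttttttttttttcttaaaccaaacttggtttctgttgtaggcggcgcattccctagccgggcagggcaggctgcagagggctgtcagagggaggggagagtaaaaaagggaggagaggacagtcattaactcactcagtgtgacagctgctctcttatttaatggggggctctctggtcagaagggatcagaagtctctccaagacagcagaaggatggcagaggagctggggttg
Traf1: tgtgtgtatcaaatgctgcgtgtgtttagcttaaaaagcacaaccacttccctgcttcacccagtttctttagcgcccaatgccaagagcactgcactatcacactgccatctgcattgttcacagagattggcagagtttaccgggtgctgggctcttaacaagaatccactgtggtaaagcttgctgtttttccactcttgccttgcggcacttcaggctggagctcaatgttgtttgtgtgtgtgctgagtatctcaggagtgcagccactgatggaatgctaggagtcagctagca
The motifs, read on both strands, were the cyclic AMP response element TGACGTCA, its core TGACG, which the full element contains, the AP-1 site TGANTCA, the EGR site GCGTGGGCG and the kappaB consensus. The 1 match in these windows was the core TGACG on the reverse strand of the Tnfsf10 window, with its first base at position -76 from the start.

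Windows were found for 33 of the 38 members, 37 windows in all. The full cyclic AMP element was in 0 of them and in 1.79% of 32817 windows of all genes. Its core was in 6 of the 37, or 16.2%, and in 20.8% of all windows. The AP-1 site was in 5, or 13.5%, and in 7.81% of all windows. Those 5 include overlapping windows of Tnfsf13b that hold the same site, so it was counted in each. The kappaB consensus was in 3, or 8.11%, and in 4.5% of all windows, and the EGR site was in none and in 0.612% of all windows. The kappaB windows belonged to Ltb, Tnfrsf9 and Traf3, and the Tnfrsf9 window with that match also held an AP-1 site. The transcript start of that window lies 13437 bases downstream of the annotated start of the gene. The other Tnfrsf9 window, with a start 5593 bases downstream, held no match. Of the lower members, Traf5 had the core TGACG. These matches are letters in a short window and do not show binding.

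Of the 15 ligand names searched, 10 had a count and 6 had enough counts to compare, of which 3 were higher, none lower and 3 neither. All 3 had a total under 200 counts, the class in which 9.74% of all rows were higher and 7.5% lower. Tnfsf10, which encodes the death-inducing ligand TRAIL, had 76 counts with PTH and 6 untreated, 12.3-fold more (5.40 to 34.6). Tnfsf18, whose product GITRL co-stimulates T cells through Tnfrsf18, had 62 counts with PTH and 7 untreated, 8.60-fold more (3.94 to 22.3). Tnfsf15, which encodes TL1A, the ligand of the death receptor Tnfrsf25, had 66 counts with PTH and 24 untreated, 2.67-fold more (1.65 to 4.46). All of these ligand genes had few reads in both libraries. Per exonic length, a scale on which genes can be compared, the level of Tnfsf10 was 0.209 CPM per kb with PTH and 0.0170 untreated. On the same scale Tnfsf18 stood at 0.434 with PTH and 0.0505 untreated, and Tnfsf15 at 0.285 with PTH and 0.107 untreated. With an interval made wider for a coefficient of variation of 0.2 between cultures, an assumed value, Tnfsf15 was no longer past the limit, while Tnfsf10 and Tnfsf18 were. By that wider interval 2.89% of all rows were higher and 1.63% lower.

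The genes lie at chr3:27317028-27342427 (Tnfsf10), chr1:161494655-161505290 (Tnfsf18) and chr4:63727084-63745113 (Tnfsf15) in mm10, are protein-coding and share no exonic bases with another gene in GENCODE M21. Tnfsf18 and Tnfsf15 each have a family ligand as neighbour. Tnfsf4, 76.2 kb from Tnfsf18, and Tnfsf8, 86.2 kb from Tnfsf15, were listed at 0 counts in both libraries.

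The ligand gene with most reads was Tnfsf12, which encodes TWEAK, with 1246 counts with PTH and 1307 untreated (ratio 0.926, 0.856 to 1.00). Its level per length was 11.9 CPM per kb with PTH and 12.8 untreated, above every other ligand among the members in both libraries. Tnfsf13, which encodes APRIL, a B-cell factor, had 33 counts with PTH and 72 untreated (ratio 0.445, 0.285 to 0.681), so that the upper bound lay just above the limit of 0.667 and the gene was not called. Reads of both genes are uncertain, because Tnfsf13 shares 60.0% and Tnfsf12 48.3% of exonic length with same-strand genes, mainly Tnfsfm13, which had 714 counts with PTH and 740 untreated. Tnfsf13b, which encodes the B-cell survival factor BAFF, had 19 counts with PTH and 26 untreated (ratio 0.710, 0.371 to 1.33).

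The other ligand genes were at the edge of detection. Tnfsf9, the 4-1BB ligand gene, had 4 counts with PTH and 14 untreated. Of the lymphotoxin genes, Ltb had 10 counts with PTH and 4 untreated, and Lta had 4 with PTH and 7 untreated. Eda, which encodes ectodysplasin, a factor for skin appendages, was listed at 0 counts with PTH and 15 untreated. No fold is given for it or for other genes listed at 0, because the table holds many such rows, 598 of them with 10 to 29 counts in the library where they were seen. They made up 21.5% of the 2778 rows with a total of 10 to 29. If a 0 arose by sampling alone, it would leave room for up to 3 counts, or 0.0434 CPM with PTH and 0.0447 CPM untreated. Whether the zeros arose in that way was not tested, so the true level could lie above this floor. Tnf, Fasl, Tnfsf4, Tnfsf8 and Tnfsf14 were listed at 0 in both libraries, so the table lists no reads of Tnf itself.

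**Figure D2:**
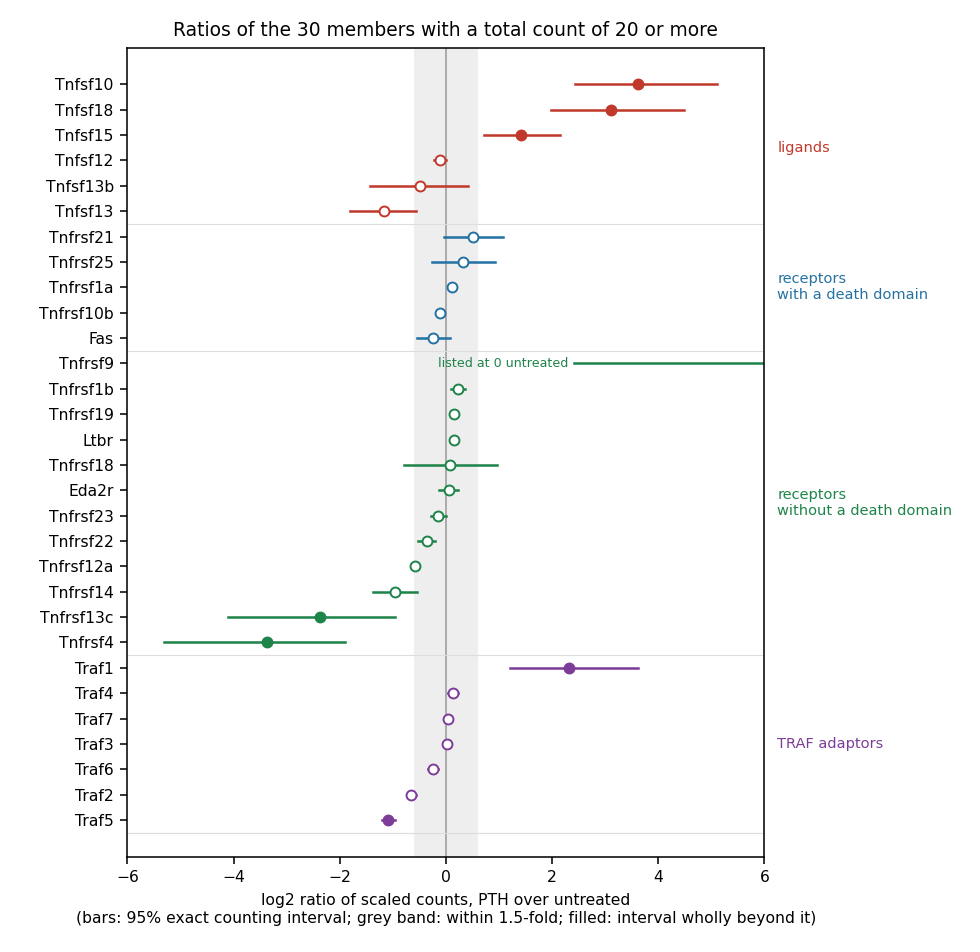
Log2 values of the scaled PTH over untreated ratio for the 30 members with 20 or more counts in all, by role, with 95% exact counting intervals as bars and a grey band within 1.5-fold. Filled points have an interval wholly beyond the band, and Tnfrsf9 has a bar from its lower bound because it was listed at 0 untreated.

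None of the 5 death-domain receptor genes with enough counts was past the limit in either direction. Among all rows compared 5.39% were higher and 3.54% lower, so no call among 5 genes is near those shares. Tnfrsf1a, which encodes TNFR1, the main TNF receptor of most cells, had 11719 counts with PTH and 10563 untreated (ratio 1.08, 1.05 to 1.11). Tnfrsf10b, the mouse TRAIL receptor gene, had 2966 counts with PTH and 3113 untreated (ratio 0.925, 0.880 to 0.973). Fas, the receptor of Fas ligand, had 164 counts with PTH and 188 untreated (ratio 0.847, 0.683 to 1.05). The intervals of these 3 genes lay wholly within 1.5-fold of equality. Tnfrsf21, which encodes DR6, had 72 counts with PTH and 49 untreated (ratio 1.43, 0.979 to 2.10). Tnfrsf25, which encodes the TL1A receptor DR3, had 57 counts with PTH and 44 untreated (ratio 1.26, 0.834 to 1.91). The wider intervals of both reached past 1.5. Edar, the ectodysplasin receptor gene, was listed at 13 counts with PTH and 0 untreated, and Ngfr, the neurotrophin receptor gene, at 0 with PTH and 3 untreated.

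Receptors without a death domain held the member with most reads. Tnfrsf12a, which encodes Fn14, the TWEAK receptor, had 17166 counts with PTH and 24867 untreated, a ratio of 0.670 (0.657 to 0.684) whose interval straddled the limit of 0.667. It was therefore not called, and with total-count scaling its ratio was 0.654 and it was called lower. Its level per length was 128 CPM per kb with PTH and 192 untreated, the highest of all 38 members in both libraries. Summed over all receptors the level was 764 CPM with PTH and 856 CPM untreated. Without Tnfrsf12a the sums were 516 CPM with PTH and 486 CPM untreated, so the order of the sums turned on this gene.

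Among the other receptors without a death domain, Ltbr, Tnfrsf19, Tnfrsf1b and Eda2r had ratios from 1.04 to 1.17. Ltbr, the lymphotoxin beta receptor gene, had 8380 counts with PTH and 7361 untreated (ratio 1.11, 1.07 to 1.14), and Tnfrsf19, which encodes TROY, had 9129 with PTH and 8018 untreated (ratio 1.11, 1.07 to 1.14). Tnfrsf1b, which encodes TNFR2, had 1098 counts with PTH and 913 untreated (ratio 1.17, 1.07 to 1.28). Eda2r, which encodes an ectodysplasin receptor, had 542 counts with PTH and 507 untreated (ratio 1.04, 0.918 to 1.17). All 4 intervals stayed within 1.5-fold. Tnfrsf22 and Tnfrsf23 encode decoy receptors for TRAIL in mouse and lie 16.1 kb apart on chromosome 7. Tnfrsf22 had 631 counts with PTH and 789 untreated (ratio 0.777, 0.698 to 0.863), and Tnfrsf23 had 770 with PTH and 825 untreated (ratio 0.906, 0.820 to 1.00). They are related genes, so reads shared between them are uncertain, and their neighbour Tnfrsf26 had 7 counts with PTH and 4 untreated.

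The receptor genes past the limit all had few reads. Tnfrsf4, at chr4:156013843-156016612, encodes OX40, a co-stimulatory receptor of T cells, and had 4 counts with PTH and 40 untreated, 10.3-fold fewer with PTH (3.72 to 39.6). Tnfrsf13c, at chr15:82221743-82224369, encodes the BAFF receptor of B cells and had 5 counts with PTH and 25 untreated, 5.15-fold fewer with PTH (1.94 to 17.2). Both stayed past the limit with the widened interval. Tnfrsf9, at chr4:150914562-150946102, encodes 4-1BB, a co-stimulatory receptor, and was listed at 22 counts with PTH and 0 untreated. It was the 1 called member listed at 0. A compared row at 0 in 1 library always passes the limit, and 146 rows were called in this way, so the call adds nothing to the counts. Without rows listed at 0 in a library 4 members were higher and 3 lower. Of the rows that remained, 4.93% were higher and 3.19% lower. Tnfrsf4, Tnfrsf13c and Tnfrsf9 share no exonic bases with another gene in GENCODE M21.

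Tnfrsf14, which encodes HVEM, had 76 counts with PTH and 143 untreated (ratio 0.516, 0.385 to 0.686), with its upper bound just above the limit. Tnfrsf18, which encodes GITR, the receptor of the Tnfsf18 product, had 25 counts with PTH and 23 untreated (ratio 1.06, 0.575 to 1.95). It lies 9.55 kb from Tnfrsf4 and shares 27.2% of exonic length with genes on the opposite strand, so its reads are uncertain. Tnfrsf17, a receptor gene of plasma cells, was listed at 3 counts with PTH and 0 untreated. Cd40, Tnfrsf8, Tnfrsf11a and Tnfrsf13b were listed at 0 in both libraries. Tnfrsf11a encodes RANK, the receptor of RANKL on osteoclast precursors.

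The ligands with more reads can be set beside their own receptors. Tnfsf10 was higher after PTH while Tnfrsf10b was at a ratio of 0.925. The TRAIL decoy receptor genes Tnfrsf22 and Tnfrsf23, which are not in the pairs counted below, were at 0.777 and 0.906. Tnfsf15 was higher while Tnfrsf25 was at 1.26, and Tnfsf18 was higher while Tnfrsf18 was at 1.06, both with wide intervals. For TWEAK the ligand gene was at 0.926 and the receptor gene Tnfrsf12a at 0.670. Of 22 textbook pairs of ligand and receptor in the family, both genes had a count in 13. A count here means at least 1 in the 2 libraries together. The 13 include Eda, listed at 0 with PTH, and Edar, listed at 0 untreated, which were not seen in the same library. In 6 pairs the ligand stood at 0 and the receptor had counts, Tnf with Tnfrsf1a and Tnfrsf1b among them. In 2 pairs the receptor alone stood at 0, and in 1 pair both did.

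All 7 TRAF genes had enough counts to compare, and 1 was higher, 1 lower and 5 neither, where 5.39% of all rows were higher and 3.54% lower. Traf1, which lacks the RING domain of the other TRAFs and is itself a known target of NF-kappaB, had 41 counts with PTH and 8 untreated, 4.98-fold more (2.30 to 12.3). It lies at chr2:34941750-34961772. Traf5, which binds CD40 and the lymphotoxin beta receptor among others, had 806 counts with PTH and 1664 untreated, 2.13-fold fewer with PTH (1.95 to 2.32). It lies at chr1:191997205-192092559. Traf5 was the 1 called member with 200 or more counts, and with the widened interval it was no longer past the limit. Of its exonic length 4.49% overlaps genes on the opposite strand.

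Traf2, the adaptor that joins TNFR1 and TNFR2 to the cIAP ubiquitin ligases, had 1553 counts with PTH and 2364 untreated (ratio 0.638, 0.598 to 0.680). Its upper bound lay just above the limit, and with total-count scaling its ratio was 0.622 and it was called lower. Traf6, the adaptor of RANK and of Toll-like and IL-1 receptors, had 1570 counts with PTH and 1804 untreated (ratio 0.845, 0.789 to 0.905). Traf3, which restrains NF-kappaB-inducing kinase, had 2786 counts with PTH and 2666 untreated (ratio 1.01, 0.962 to 1.07). Both intervals lay within 1.5-fold, as did those of Traf4 and Traf7. Traf4 had 1958 counts with PTH and 1738 untreated (ratio 1.09, 1.03 to 1.17). Traf7, which carries WD40 repeats in place of the TRAF domain, had 10623 counts with PTH and 10020 untreated (ratio 1.03, 1.00 to 1.06). Per exonic length Traf7 had the highest level of the TRAFs, at 26.2 CPM per kb with PTH and 25.4 untreated, and Traf1 the lowest, at 0.0672 with PTH and 0.0135 untreated.

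**Figure D3:**
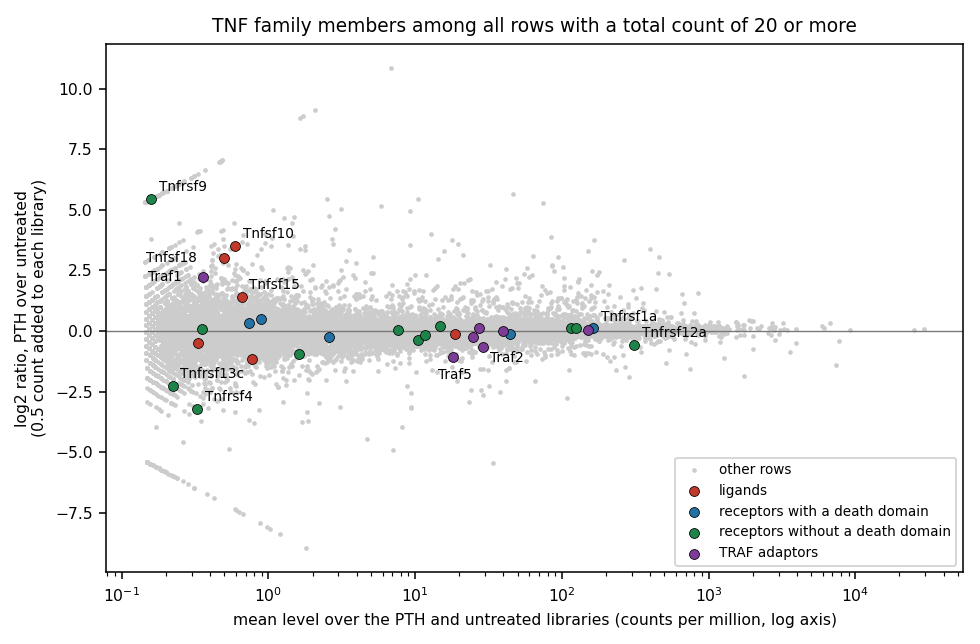
Log2 ratio, PTH over untreated, with 0.5 count added to each library, against the mean level in CPM on a log axis, for all 16408 rows compared (grey) and the members among them (coloured by role). The called members lie at under 1 CPM, apart from Traf5, and Tnfrsf12a lies farthest right of the members at a log2 ratio of -0.58.

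Levels within the family spanned a wide range. On the mean of both libraries per exonic length, 18 members were above 1 CPM per kb and 10 were under 0.1 CPM per kb. The median over 14526 protein-coding genes with a count was 3.98 CPM per kb, and 11 members were above it. Of these 11, 5 were receptor genes (Tnfrsf12a, Tnfrsf1a, Ltbr, Tnfrsf19 and Tnfrsf10b), 5 were TRAF genes (Traf7, Traf4, Traf2, Traf3 and Traf5) and 1 was the ligand gene Tnfsf12. The 3 ligand genes called higher stood below 0.5 CPM per kb in both libraries.

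Many family genes lie next to each other in the genome, and 11 pairs of neighbours had a gap of at most 200 kb, covering 20 of the 47 family names. Of these 20 genes 3 were called and 5 had no count, and in none of the pairs were both genes called. Genes with fewer than 20 counts in all could not be called, so in many pairs this could not come out otherwise. Among all rows compared 5.39% were higher and 3.54% lower. In 6 pairs 1 gene had no count and its neighbour had some, such as Tnfrsf1b, which had 1098 counts with PTH and 913 untreated beside Tnfrsf8 at 0 in both libraries. Ltbr and Tnfrsf1a, 35.5 kb apart on chromosome 6, were both among the members with most reads and had ratios of 1.11 and 1.08.

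Downstream of the receptors, 51 of 52 genes on 3 pathway lists had enough counts, of which 5 were higher, 2 lower and 44 neither (all rows 5.39% higher and 3.54% lower). Of 36 genes of the receptor complexes and their kinases, 2 were higher, 2 lower and 32 neither, and their log2 ratios had a median of 0.02. Tifa, which encodes a TRAF-interacting protein that activates TRAF6, had 1172 counts with PTH and 535 untreated, 2.13-fold more (1.92 to 2.36). Map3k1, a MAP kinase kinase kinase gene, had 632 counts with PTH and 346 untreated, 1.77-fold more (1.55 to 2.03). Tnfaip3, which encodes the ubiquitin-editing enzyme A20 that restrains TNF receptor signalling, was lower, with 609 counts with PTH and 3216 untreated (ratio 0.184, 0.168 to 0.201). Map3k14, which encodes NF-kappaB-inducing kinase, had 2387 counts with PTH and 4154 untreated, 1.79-fold fewer with PTH (1.70 to 1.89). Among these 4 genes, Tnfaip3 alone was past the limit with the widened interval. Tab2 and Map3k7, which encode a TAK1-binding protein and the kinase TAK1, had the most reads in that list and ratios of 0.904 and 1.02.

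None of 5 genes for cleavage of ligands was past the limit, with Adam10 at a ratio of 1.05 and Rhbdf1, which encodes an inactive rhomboid that controls the TNF sheddase, at 0.845. Of 10 NF-kappaB subunit and inhibitor genes, 3 were higher, none lower and 7 neither, and the median log2 ratio was 0.30. Their ratios ran from 0.671 to 5.34. The genes of both lists had 200 or more counts, and among all such rows 3.76% were higher and 2.07% lower. The 3 higher genes encode members of the IkappaB family. Nfkbia and Nfkbib, which encode other members of that family, were not called, with ratios of 1.22 and 0.842. Nfkbie had 2558 counts with PTH and 784 untreated, 3.17-fold more (2.92 to 3.44). Bcl3 had 605 counts with PTH and 110 untreated, and Nfkbiz had 2570 with PTH and 1353 untreated. Bcl3 and Nfkbie stayed past the limit with the widened interval and Nfkbiz did not. The subunit genes Nfkb1 and Nfkb2, with most reads in the list, were both at 1.24, and 18.1% of the exonic length of Nfkb2 overlaps genes on the opposite strand.

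**Figure D4:**
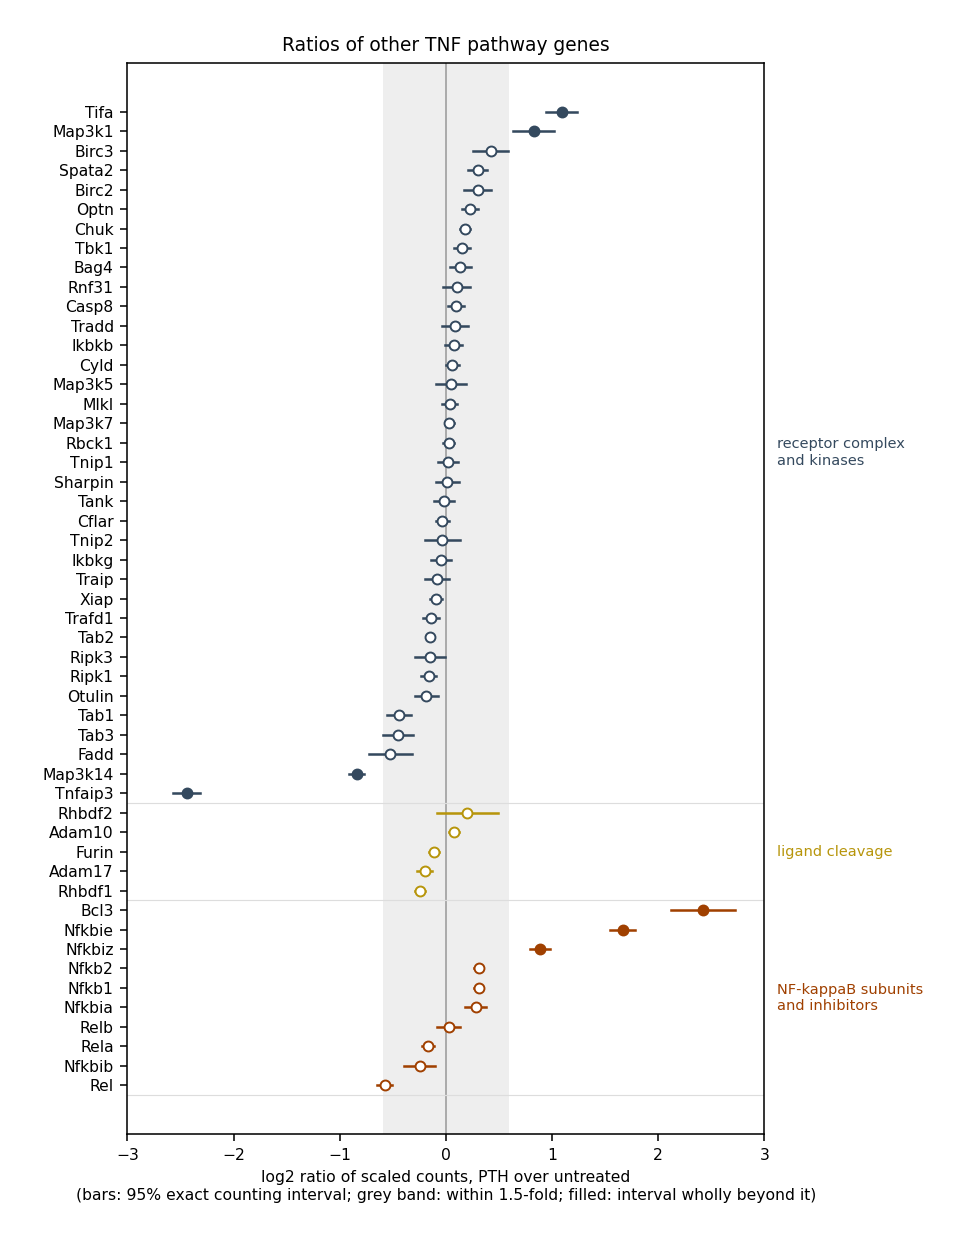
Log2 values of the scaled PTH over untreated ratio for the 51 compared genes of the receptor complexes, ligand cleavage and NF-kappaB lists, with 95% exact counting intervals and a grey band within 1.5-fold. Tnfaip3 stands farthest to the left and Bcl3 farthest to the right, and most genes lie inside the band.

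Family genes whose names fall outside the pattern gave few further values. Relt, a TNF receptor superfamily gene, had 867 counts with PTH and 638 untreated (ratio 1.32, 1.19 to 1.46). Cd27 was listed at 0 with PTH and 8 untreated, and Cd70 and Cd40lg at 0 in both libraries. For scale, Tnfsf11 had 348 counts with PTH and 12 untreated, and Tnfrsf11b had 1591 with PTH and 2425 untreated. The PTH count of Tnfsf11 was above those of Tnfsf10, Tnfsf18 and Tnfsf15, and below that of Tnfsf12.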

How the data were processed

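RNA from 2 libraries of MC3T3-E1 cells was sequenced, 1 with PTH and 1 untreated. The authors deposited 1 table of counts per gene, in whole numbers with no normalisation. HISAT2 and the build mm10 are named in the submitters' processing notes. The counting tool, annotation and use of strand are not given in the sources used, so the counts may be estimates and shared reads may have been split.

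From these counts, TMM effective library sizes were computed on rows with a total of 20 or more (edgeR 4.0.16, R 4.3.3). With 1 library per group, no quasi-likelihood fit was possible. Exact conditional (Clopper-Pearson) intervals at 95% were computed with scipy 1.17.1, and 0.5 count was added for log2 ratios. The widened interval took a normal error of the log ratio, again with 0.5 count added. PCR copies are not independent molecules, so intervals and floors cover counting error only. Exonic lengths and overlaps came from GENCODE M21 (GRCm38), which held 55227 of the rows, and promoter windows from RefSeq on GRCm38.p6. DESeq2 1.42.0 gave alternative size factors.

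The members and lists were chosen with earlier results of these data known. The rule named every member past the limit or with 100 or more counts, and in each pathway list up to 6 genes past the limit and the 2 with most counts. Nfkbia and Nfkbib were named outside this rule. The remaining members were named by their counts. Of 6 endothelial markers 1 had enough counts and was not called, and of 5 Schwann and neural crest markers 3 did and none was called.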

Additional observations from a re-analysis of the deposited data

How the results depend on the processing

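Among members the numbers of 5 higher and 3 lower were the same with the DESeq2 and upper-quartile size factors. They were also the same with an interval widened for a coefficient of variation of 0.1. By these settings, in that order, all rows gave 5.38%, 5.24% and 4.14% higher and 3.56%, 3.78% and 2.46% lower. With total counts 5 members were higher and 6 lower, against 5.12% higher and 3.92% lower among all rows. With no low-count filter 6 of 38 members were higher and 4 lower, against 1387 higher (5.9%) and 980 lower (4.17%) of 23527 rows. With a total of 100 or more, 0 of 21 members were higher and 1 lower, since most called members have fewer reads. Of 13079 such rows, 540 were higher (4.13%) and 310 lower (2.37%). With a limit of 2-fold, 4 members were higher and 1 was lower, and Traf5, Tnfsf15 and Tnfrsf13c lost their calls. Pathway genes then gave 2 higher and 1 lower, and all rows 517 higher (3.15%) and 262 lower (1.6%). With a looser fold limit, 7 members and 5 pathway genes were lower, and all rows gave 1495 higher (9.11%) and 1213 lower (7.39%). The interval widened for 0.1 left 3 pathway genes higher and 1 lower. That for 0.2 left 2 higher and 1 lower, with 474 higher (2.89%) and 267 lower (1.63%) among all rows. Leaving out rows listed at 0, or rows sharing over 20% of exonic length, was chosen after seeing the data. The first left 4 members higher and 3 lower, against 4.93% higher and 3.19% lower of the remaining rows. The second left 5 members higher and 3 lower, against 5.24% higher and 3.33% lower of the remaining rows.

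Depth limits the small calls, since Tnfrsf13c rests on 5 counts and Tnfrsf4 on 4 counts with PTH, and Tnfsf10, Tnfsf18 and Traf1 on 6, 7 and 8 counts untreated. The variation between cultures is unknown. No paired analysis was possible because each group has 1 library.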
